A study of Homo sapiens with 10 samples.

Results

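Side population cells of human gastric cancer lines were set against the unsorted cells of the same study, across all genes of a whole-transcriptome array. The comparison used 6 of the 10 arrays in the series: 4 of side population cells, lettered a to d, and 2 of unsorted cells, lettered a and b. The 4 arrays of non-side population cells did not enter it. Each array was hybridised with biotin-labelled total RNA. AGS and MKN 45 are established lines grown from gastric carcinomas. The origin label of every array names both lines, and the source label names AGS except on side population replicates a and b, where it names no line. The labels give no drug, genotype change or time point for any group. They do not say whether the unsorted cells were stained with dye or run through the sorter, so membership of the side population and the handling of sorted cells cannot be told apart. The labels do not tell whether replicates were grown separately. The p-values therefore reflect only how far these samples vary among themselves, and that variation may be technical.

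A side population is the small group of cells that stays dim when live cells take up a Hoechst dye, which stains DNA, since transporters of the ABC family, chiefly ABCG2 and ABCB1, pump it out. It is collected by flow cytometry and has been studied as a possible source of stem-like cells in normal tissues and tumours. Genes that react within an hour or so of a stimulus (the immediate early genes), genes switched on by interferon, and the sterol-controlled enzymes of cholesterol synthesis are all known to move with the state of cultured cells. Each of 19775 genes was represented by 1 probe set, the brightest of those that name only that gene, and the 9888 genes in the brighter part of the range (intensity of about 145.4 or more) were tested. Intensities are on a linear scale, and a log2 fold change is the mean log2(intensity + 5.7) of side population cells minus that of unsorted cells, which understates the change of dim genes.

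The arrays differed in ways that the groups did not fully follow. The ratio of 3' to 5' signal was 3.34 for the actin control and 1.87 for the GAPDH control in side population replicate a, against 1.16 to 1.28 and 0.914 to 1.03 on the other 5 arrays. The 18S ribosomal RNA control read 25864.3 to 32411.3 in side population replicates a to c, and 851.2 in replicate d, 274.6 in unsorted replicate a and 828.3 in unsorted replicate b. Across the genes tested, which are not independent replicates, the unsorted arrays correlated at 0.988, the side population arrays at 0.935 to 0.972 and arrays of different groups at 0.919 to 0.946. The first principal component (44.1% of the variance) set the unsorted pair, at 39 and 32.7, apart from the side population arrays, at -26.5 to -5.3, and the second (30.1%) placed side population replicates a to d at 16.6, 27.4, -32.4 and -25.8. Of the epithelial markers, EPCAM, KRT8, KRT18, KRT19 and CLDN4 were bright on all 6 arrays, while CDH1 read 265.5 to 467.7. Their summed intensities, with CDH1 included, were 89676.5 to 114317 in side population and 110630.2 to 118690.3 in unsorted cells. The summed signal of 6 blood markers was 670 to 793.1 in side population and 440.9 to 442.5 in unsorted cells, with 2 of the 6 below the median of all probe sets on every array, and its part in the results was not tested. CD79A was the brightest of the 6, at 333.6, 363.1, 325.9 and 411.4 against 173.6 and 202.4, and was not called. The sums overlapped for 6 fibroblast markers (1233.4 to 2226 against 1377.7 to 2186.1) and 5 endothelial markers (180 to 257.9 against 184.1 to 201.5). COL1A1 made up most of the fibroblast sum, at 1098.3 to 2002.9 against 1287.2 and 2010.4.

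Side population cells differed from unsorted cells in 368 of the 9888 genes tested by limma (3.72%), of which 254 were higher (2.57% of the genes tested) and 114 lower (1.15%). In all, 311 of the 368 differed by at least 1 log2 unit, 28 rose by 2 units or more and 7 fell by as much. The median log2 fold change was 1.295 among the genes that rose and -1.196 among those that fell, against 0.03 over all genes tested. Before adjustment, 2276 of the genes tested (23%) had a p under 0.05. In 20.9% of the genes tested all 4 side population arrays lay above both unsorted arrays, and in 15.7% all 4 lay below them, so separated groups were common among genes that did not pass. In these bulk samples, fewer cells of a type and less RNA per cell cannot be told apart. The called genes comprised 352 protein-coding genes and 13 long noncoding RNAs, 12 of which were higher. The count rested on the unsorted pair. Omitting unsorted replicate a left 4 called genes and omitting b left 12, with the lone unsorted array assumed to vary like the others, and omitting side population replicate a left 142. When each array was centred on the median of all its probe sets, which moved the median of all genes tested from 0.03 to -0.16, 390 genes were called and 127 of them (32.6%) were higher, against 69% as measured.

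**Figure D1:**
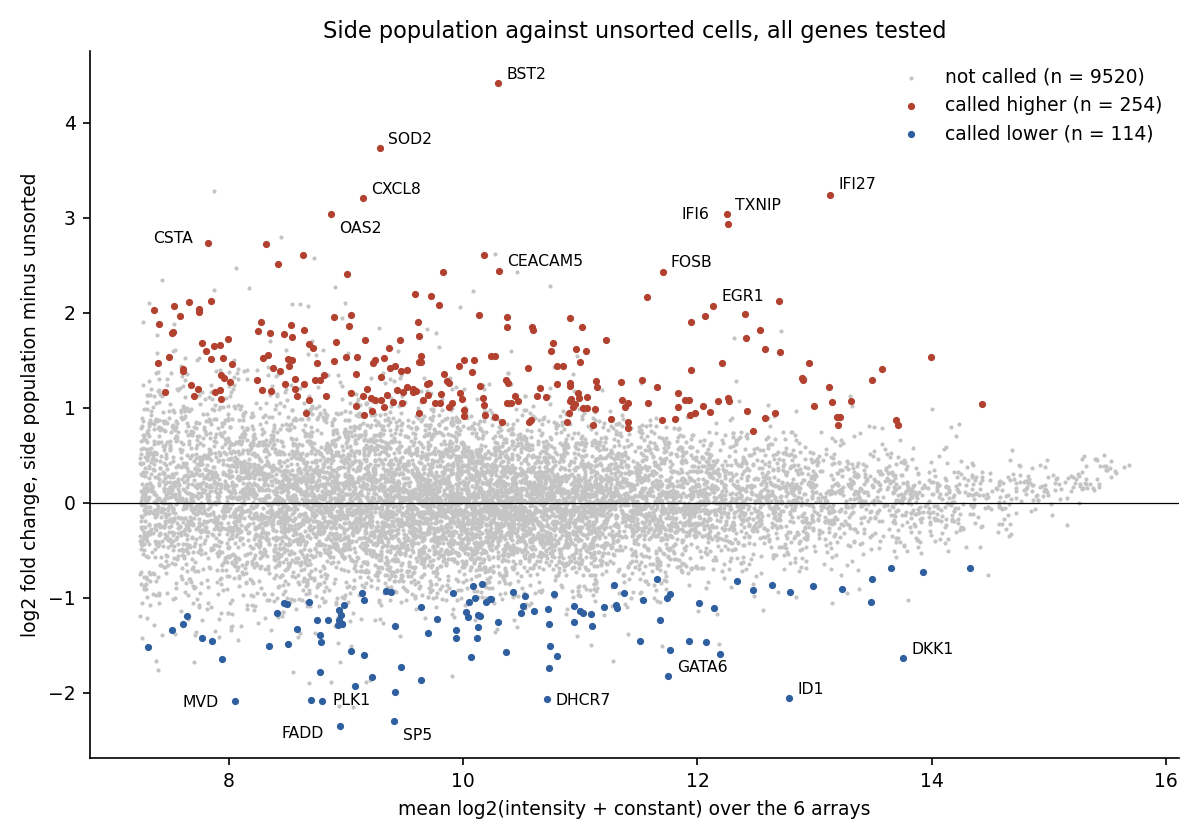
Log2 fold change of side population over unsorted cells (y axis) against the mean log2(intensity + constant) over the 6 arrays (x axis) for the 9888 genes tested. Each point is a gene, with the 254 called higher in red, the 114 called lower in blue and the rest in grey. BST2 lies highest at 4.42, and FADD lowest at -2.34.

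The gene that separated the groups with the smallest adjusted p was TXNIP, which encodes a thioredoxin-binding arrestin that limits glucose uptake and is induced by glucose. It read 10847, 8498.8, 10270.2 and 9846.3 in side population replicates a to d against 991.8 and 1430.7 in the unsorted pair. The side population arrays were close to each other and far above the unsorted pair, an 8.21-fold difference (log2 fold change 3.04 ± 0.20, SE, adjusted p = 0.00057). Both other TXNIP probe sets pointed the same way, at 2.18 and 1.42. EGR1, an immediate early transcription factor, had the tightest side population values of the larger rises, at 7350.1, 7653.1, 7015.6 and 7062.9 against 1801.5 and 1644.1 (4.21-fold, 2.07 ± 0.17, adjusted p = 0.00109). TXNIP, EGR1 and FGB were the only genes called both without unsorted replicate a and without unsorted replicate b. FGB, the fibrinogen beta chain, lay below the expression filter when all 6 arrays were used and was not among the genes tested there.

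Several strong rises fell outside the interferon group described further on. CXCL8, which encodes the neutrophil chemoattractant interleukin 8, read 808.9, 1076.3, 1379.1 and 1619.6 in side population cells and 74.9 and 199.5 in unsorted cells, a 9.23-fold difference (3.21 ± 0.40, adjusted p = 0.00884). CSTA, a cysteine protease inhibitor of epithelia, was at 494.4, 338.1, 551 and 332.8 against 60.4 and 56.2 (2.73 ± 0.30, adjusted p = 0.00778). Both unsorted readings of CSTA lay below the medians of their arrays, 60.9 and 58.7, so it passed the filter through the side population arrays, and the value was 2.70 with such readings raised to the median. CEACAM5, the carcinoembryonic antigen, read 3072.3, 1603.1, 2080.5 and 2340 against 339.6 and 477 (2.44 ± 0.28, adjusted p = 0.00843). In each of these genes the dimmest side population array was still well above the brighter unsorted array. Like CSTA, CXCL8 had a mean unsorted intensity below the filter level of about 145.4 and passed through the side population arrays. The same holds for LAMP3, IFI16, OAS2, ARRDC3, SOD2 and LOC114224, described further on. The zinc finger gene ZKSCAN1 was at 1683.1, 2576.3, 2291.5 and 1973.6 against 285.4 and 406.1 (2.61 ± 0.25, adjusted p = 0.00356), with its 3 other probe sets at 2.25, 1.64 and 0.22. LAMP3, a lysosomal membrane protein of maturing dendritic cells that interferon can also induce, read 390.3, 472.1, 1289.1 and 1109.2 against 100.6 and 126.7 (2.61 ± 0.47, adjusted p = 0.0256), with replicates c and d above a and b.

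**Figure D2:**
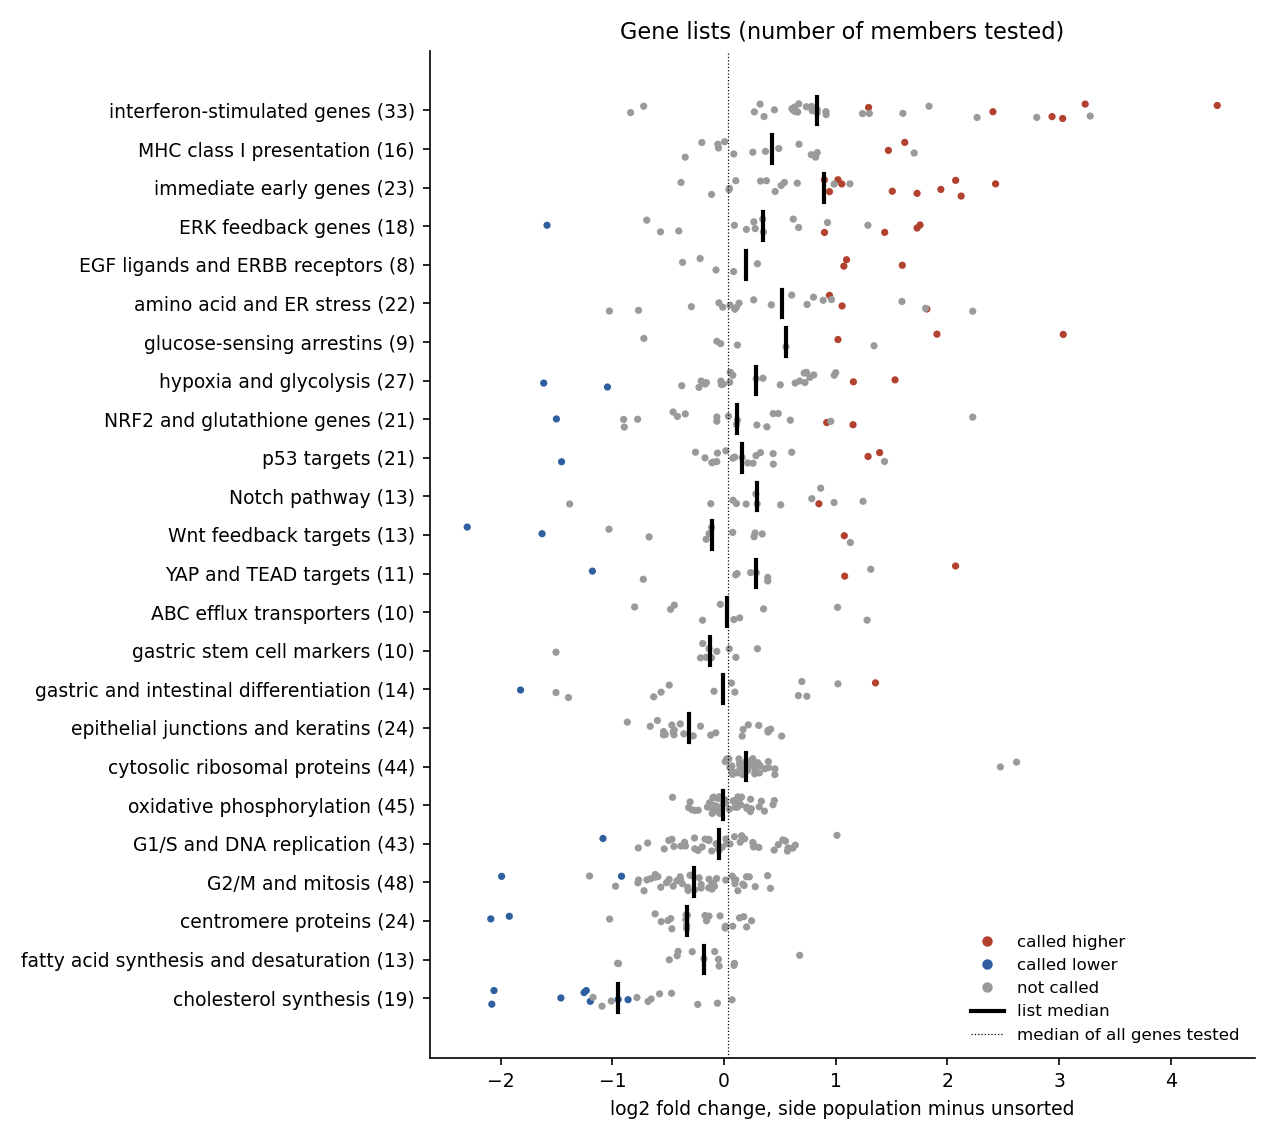
Log2 fold change of side population over unsorted cells (x axis) for the tested members of 24 gene lists (y axis, number of members in brackets). Points are genes, red where called higher and blue where called lower, black bars are list medians and the dotted line is the median of all genes tested, 0.03. The interferon and immediate early lists have the medians farthest to the right, 0.83 and 0.90, and cholesterol synthesis the one farthest to the left, -0.95.

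Interferon-stimulated genes encode antiviral proteins that are transcribed when STAT and IRF factors bind a short element in their promoters. Of 33 tested members, 6 rose, 0 fell and 31 had a positive fold change, with a median of 0.83. For this list and those that follow, the shares over all genes tested were 2.57% called higher and 1.15% called lower. All 4 side population arrays lay above both unsorted arrays for 20 of the 33, against 20.9% of all genes tested. BST2, or tetherin, which holds budding viruses at the cell surface, read 944, 2440.4, 8943.3 and 7093.9 in side population replicates a to d and 189.6 and 130.6 in unsorted cells. This was the largest rise of all genes tested, at 21.4-fold (4.42 ± 0.75, adjusted p = 0.0213), and replicates c and d were several times brighter than a and b. IFI27, a mitochondrial protein strongly induced by type I interferon, was at 8726.3, 17410.4, 28434.7 and 29964.1 against 2235 and 1808.7 (9.41-fold, 3.23 ± 0.43, adjusted p = 0.00981). IFI6, an inhibitor of apoptosis, read 7337.9, 11554.1, 17649.3 and 5802.5 against 986.3 and 1596.4 (7.66-fold, 2.94 ± 0.40, adjusted p = 0.0111). Unlike IFI27, IFI6 had its lowest side population value in replicate d.

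The remaining called members were a pair of oligoadenylate synthetases, which activate the antiviral nuclease RNase L, and IFI44. OAS2 read 339.5, 548.5, 1786.3 and 2285 against 132 and 90.4 (3.03 ± 0.68, adjusted p = 0.0448), with another probe set at 1.18, and its adjusted p was 0.0682 without the filter. OAS3 was brighter and moved less, at 2628.7, 3874.4, 4417.9 and 5557.9 against 1477.3 and 1772.7 (1.29 ± 0.28, adjusted p = 0.0423), with another probe set at 0.46. IFI44 was at 360.1, 742.8, 1721.8 and 1376.7 against 185.5 and 144.4 (2.41 ± 0.53, adjusted p = 0.0437). IFI16, a DNA sensor that interferon induces and that was not on the list, also rose, at 399.5, 831.9, 574.3 and 703.6 against 125 and 82.5 (2.51 ± 0.33, adjusted p = 0.00981). Of its other probe sets, one was at 1.87 and one at 0.42. IFI44L (3.28 ± 0.78, adjusted p = 0.0509) had the second largest fold change of the list and did not pass. The number of members of the interferon-stimulated genes called was 10 without side population replicate a, 3 without c, 3 without d, and 0 without either unsorted array.

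The promoters of these called members are shown because 5 of the 5 with an entry in the RefSeq promoter table (build GRCh38.p14) held the core of the interferon-stimulated response element, which was searched as GAAA, any 2 bases and GAAA on both strands of the 250 bases before the start. OAS2 had no entry there. Capitals mark each match, and a match in the other orientation reads as TTTC at each end:
BST2: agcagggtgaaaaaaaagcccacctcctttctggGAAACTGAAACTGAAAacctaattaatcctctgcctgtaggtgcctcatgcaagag
IFI27: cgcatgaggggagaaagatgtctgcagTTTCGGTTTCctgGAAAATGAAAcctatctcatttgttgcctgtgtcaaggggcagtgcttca
IFI6: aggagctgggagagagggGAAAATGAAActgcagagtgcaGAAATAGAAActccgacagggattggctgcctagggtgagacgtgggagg
IFI44: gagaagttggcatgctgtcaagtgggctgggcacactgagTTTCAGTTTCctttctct
OAS3: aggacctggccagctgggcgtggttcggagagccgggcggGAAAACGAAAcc

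The BST2 window is chr19:17405705-17405794 on the minus strand and holds 2 matches that overlap by 4 bases. The IFI27 window is chr14:94110601-94110690 on the plus strand, with 2 matches in opposite orientations that begin 108 and 95 bases before the start. The IFI6 window, chr1:27672236-27672325 on the minus strand, shows 2 of that promoter's 3 matches. The IFI44 window, chr1:78649731-78649788, and the OAS3 window, chr12:112938422-112938473, are on the plus strand and end at the base before the start, and the second OAS3 match lies outside the bases shown. The element was found in 20 of the 27 tested list members that had a promoter entry and in 3.07% of all 27305 promoters. Among all called genes with an entry it was present in 8 of 218 that rose (3.67%) and 2 of 97 that fell (2.06%), against 2.36% of the promoters of tested genes. These matches describe letters in a window and not bound sites.

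The interferon-stimulated genes also differed among the side population arrays themselves. Relative to the unsorted mean, the median of the 33 tested members was 0.36 in side population replicate a, 0.39 in b, 1.45 in c and 1.36 in d. All 33 were higher in replicates c and d than in a and b, with a median difference of 1.24. By limma, 22 of the 33 passed the test of that difference in this direction, against 4.47% of all genes tested, and 0 in the other, against 2.98%. This comparison does not use the unsorted arrays for its difference, and the division was made with earlier results of these data known. It follows the source label, since c and d are labelled AGS and a and b name no line. Named here after their values were seen, OAS1 read 1474.7 and 1510.2 in replicates a and b, 5123.8 and 4336.2 in c and d, and 1794.1 and 1613.8 in unsorted cells. IFIT1 followed the same pattern, at 1957.9, 2357.2, 7844.2 and 6646.6 against 2468.8 and 2652.3. For both genes replicates c and d stood above the unsorted arrays, while a and b did not. Of the members called against unsorted cells, IFI6 (0.14 ± 0.43, adjusted p = 0.88) and OAS3 (0.63 ± 0.24, adjusted p = 0.126) did not pass the test between the pairs.

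**Figure D3:**
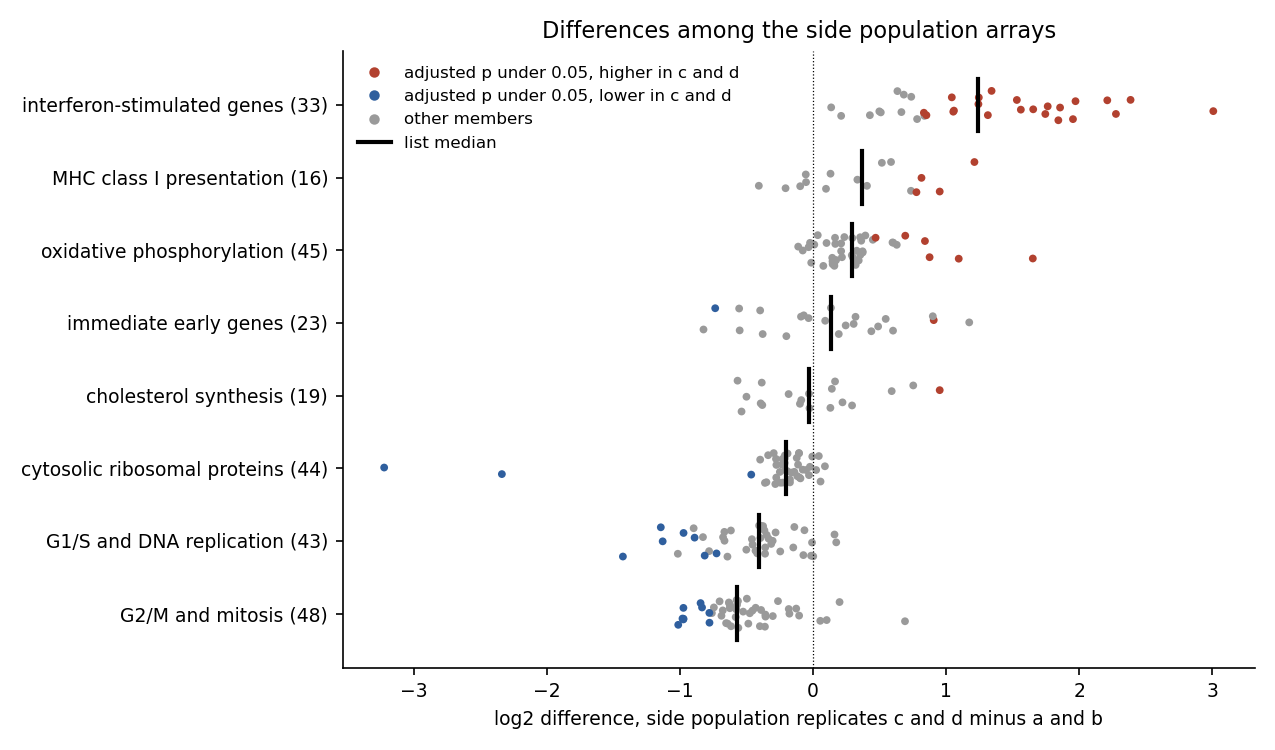
Log2 difference between side population replicates c and d and replicates a and b (x axis) for the tested members of 8 gene lists (y axis, number of members in brackets). Points are genes, red or blue where the adjusted p was under 0.05, and black bars are list medians. Interferon-stimulated genes lie to the right, with a median of 1.24, and G2/M and mitosis genes to the left, with a median of -0.57.

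Genes that present antigen on MHC class I, a known branch of the interferon response, gave fewer calls. Of 16 tested members, 2 rose and 0 fell, with a median of 0.43. HLA-C read 4940.8, 10632.7, 10124.8 and 11705.3 against 3139.7 and 2659.4 (1.62 ± 0.32, adjusted p = 0.0325), and HLA-B read 6116.7, 14133.9, 12870.2 and 13761.7 against 4387.7 and 3659 (1.47 ± 0.32, adjusted p = 0.0413). The other HLA-B probe sets were at 0.39 and 0.31, and those of HLA-C at 1.88, 1.82 and -0.03. In both genes replicate a was the lowest of the side population arrays, the library whose 3' to 5' control ratios were raised. The classical HLA genes are near-identical copies that share probe sequence, so the signal cannot be ascribed to a single one. PSMB9, an immunoproteasome subunit, was at 1.70 ± 0.44 (adjusted p = 0.0635). Of the 15 tested interferon signalling components, 0 were called by limma, 7 had an unadjusted p under 0.05 (23% of all genes did) and 6 had all side population arrays above both unsorted ones (20.9% of all genes did). Among these, SOCS3, a feedback inhibitor of cytokine receptors, was at 1.20 ± 0.30 (adjusted p = 0.0565). IRF9, the DNA-binding subunit of the interferon-activated complex, was at 1.12 ± 0.33 (adjusted p = 0.0842). IRF2 (-0.95 ± 0.26, adjusted p = 0.0723) and JAK2 (-0.96 ± 0.29, adjusted p = 0.088) had lower values in side population cells. Of the 15 components, 8 had a positive and 7 a negative fold change. In 2 of them all side population arrays lay below both unsorted ones, against 15.7% of all genes.

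The NF-kB list did not move with its most changed members. Of 15 tested genes, CXCL8 and SOD2 rose, 0 fell and the median was -0.12. The rise of SOD2 rests on 1 probe set, and those above the filter that name it with another gene were at 0.18, -0.22 and 0.67. The chemokines CXCL10 and CXCL11, which interferon gamma induces, had lower intensities in side population cells: CXCL10 read 143.3, 103.7, 164.5 and 182.2 against 299.2 and 405 (-1.23 ± 0.31, adjusted p = 0.0597). CXCL11 was at 160.9, 305.6, 554.7 and 311.4 against 775.4 and 812.1 (-1.37 ± 0.41, adjusted p = 0.0874). NFKBIA, the inhibitor that NF-kB itself induces, was at -0.85 ± 0.23 (adjusted p = 0.0672). None of these 3 passed, though their groups did not overlap.

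The immediate early genes gave the largest number of called genes of any list. Of 23 tested members, 10 rose, 0 fell and 21 had a positive fold change. The median was 0.90, and the called members lay between 0.90 and 2.43. FOSB, an AP-1 subunit, read 4960.2, 3662.4, 7701.8 and 8303.4 in side population cells and 1106.5 and 1049.1 in unsorted cells (5.40-fold, 2.43 ± 0.32, adjusted p = 0.00981). MAFF, a small basic leucine zipper factor, was at 12038.6, 11236, 12433.9 and 8232.7 against 1965.5 and 3141.5 (2.12 ± 0.24, adjusted p = 0.00788). NR4A1, an orphan nuclear receptor, read 2978, 2092.8, 2838.5 and 4687.6 against 848.5 and 719.4 (1.94 ± 0.30, adjusted p = 0.0148). IER3, a stress-induced survival factor, read 7675, 6980.5, 10903.2 and 7505.7 against 2535.6 and 2368.7 (1.73 ± 0.21, adjusted p = 0.00876). The smaller rises that passed included ATF3 (0.94 ± 0.20, adjusted p = 0.0377, with another probe set at -0.83) and KLF10 (1.02 ± 0.23, adjusted p = 0.0459). Unlike the interferon list, the median of this list was similar on the side population arrays, at 0.85, 0.69, 0.63 and 0.85 in replicates a to d. When side population replicate a was left out, 6 of the immediate early genes were called, and 1 or 2 when unsorted replicate a or b was.

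EGR1 is a known target of serum response factor, and its promoter is shown because it was the only called immediate early gene of the 6 with a promoter entry that held a serum response (CArG) box, in capitals, in the 250 bases before the start:
EGR1: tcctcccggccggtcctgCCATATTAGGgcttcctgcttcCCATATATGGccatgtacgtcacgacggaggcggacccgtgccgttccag

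This window is chr5:138465356-138465445 on the plus strand of GRCh38.p14, and its 2 boxes begin 105 and 83 bases before the start. A CArG box was present in 1.14% of all promoters, in 6 of 218 promoters of genes that rose (2.75%) and in 0 of 97 of genes that fell. The cyclic AMP response element, TGACGTCA, was present in 1.77% of all promoters, 3.10% of those of tested genes, and 9 of 218 (4.13%) that rose and 2 of 97 (2.06%) that fell. The kappa B site was present in 5.05%, 5.97%, 16 of 218 (7.34%) and 3 of 97 (3.09%) of the same sets. MAFF was the called immediate early gene whose window held a cyclic AMP response element.

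**Figure D4:**
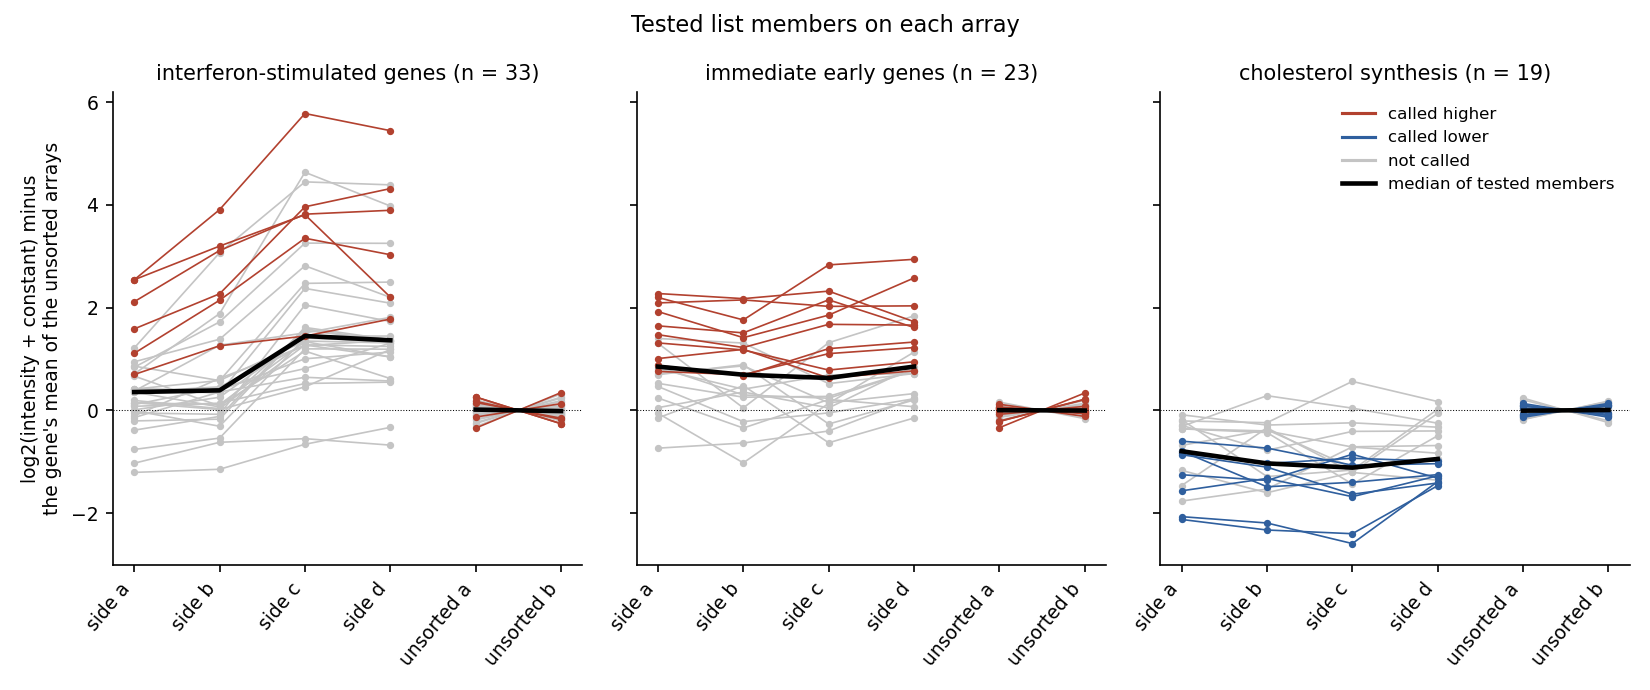
Log2(intensity + constant) of each tested list member on each array, minus that gene's mean of the unsorted arrays (y axis), on the 6 arrays (x axis). Each line is a gene, red or blue where called higher or lower, and the black line is the median of the list on that array. The interferon median is 0.36, 0.39, 1.45 and 1.36 in side population replicates a to d, while the medians of the other lists are similar on the 4 side population arrays.

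Feedback genes of the ERK pathway, which growth factor signalling induces and which then restrain it, were called in both directions. Of 18 tested, 4 rose and 1 fell, with a median of 0.35. SPRY4 and SPRY2, of the Sprouty family of receptor signalling inhibitors, rose: SPRY4 read 1601.2, 1388.7, 893.7 and 964.9 against 348.8 and 340.4 (1.76 ± 0.28, adjusted p = 0.0171), and SPRY2 read 2557.8, 2882.4, 2290.4 and 2234.9 against 815.3 and 1017 (1.44 ± 0.21, adjusted p = 0.0131). The phosphatase genes DUSP1 and DUSP4 went opposite ways. DUSP1, which acts on stress kinases as well, was at 0.90 ± 0.17 (adjusted p = 0.0284) with another probe set at -0.73, while DUSP4 fell, at 3330.9, 4432.5, 2408.6 and 3094.5 against 9219.5 and 10271.9 (-1.59 ± 0.24, adjusted p = 0.0148), with its other probe sets at -1.01 and -0.40. Of 8 tested members of the list of EGF ligands and ERBB receptors, which also holds the inhibitor ERRFI1, 3 rose and 0 fell. ERBB3, a receptor that signals with ERBB2, read 2763.4, 2002.9, 4016.7 and 3882.8 against 976.7 and 1032.6 (1.60 ± 0.29, adjusted p = 0.026), with its other probe sets at 1.02 and 0.07. HBEGF, a shed EGF receptor ligand, was at 1.10 ± 0.21 (adjusted p = 0.0284), and ERRFI1, an intracellular inhibitor of the EGF receptor, at 1.07 ± 0.14 (adjusted p = 0.00981). ADAM17, the protease that sheds such ligands and also takes part in Notch cleavage, was at 0.85 ± 0.20 (adjusted p = 0.0476), with another probe set of opposite sign.

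Cholesterol synthesis was the group with the most calls among lower genes. Sterol-sensing SREBP factors control these enzymes, which build cholesterol from acetyl-CoA through mevalonate, squalene and lanosterol. Of 19 tested members, 8 fell, 0 rose and 18 were negative, with a median of -0.95 and called members between -2.08 and -0.86. For 14 of the 19, all side population arrays lay below both unsorted arrays, against 15.7% of all genes tested. The called members included early and late steps. ACAT2, which joins the first acetyl units, was at -0.95 ± 0.18 (adjusted p = 0.0304), and HMGCS1, the enzyme before the rate-limiting reductase, at -1.25 ± 0.25 (adjusted p = 0.0334). MVD, which makes isopentenyl diphosphate from mevalonate diphosphate, read 153.3, 132.2, 125.5 and 245.1 against 754.3 and 626 (4.23-fold lower, -2.08 ± 0.32, adjusted p = 0.0148). SQLE, squalene epoxidase, was at 2854.8, 3375.1, 2636.5 and 3498.2 against 8941.4 and 8012.2 (-1.46 ± 0.19, adjusted p = 0.00981), with its other probe sets at -2.08 and -2.51.

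The later steps fell as well. LSS, which closes the ring to lanosterol, read 3341.5, 2066.5, 2195.4 and 2435.5 against 6229 and 5409.3 (-1.23 ± 0.23, adjusted p = 0.0269), with another probe set at -2.85. MSMO1 (-0.86 ± 0.19, adjusted p = 0.045) and NSDHL (-1.20 ± 0.23, adjusted p = 0.0275) remove methyl groups of lanosterol. DHCR7, the last enzyme of the pathway, was at 1030.9, 945.9, 715.3 and 1657.8 against 4477.9 and 4214.2 (4.17-fold lower, -2.06 ± 0.31, adjusted p = 0.0136), while its other probe set was at -0.89. The side population arrays stayed well below the unsorted values for DHCR7 and MVD, and replicate d was the highest of its group for both. Relative to the unsorted mean, the list's median was -0.80, -1.03, -1.11 and -0.95 in side population replicates a to d. Leaving out side population replicates a, b, c or d called 6, 9, 7 or 7 members of cholesterol synthesis, and leaving out either unsorted array called 0, with medians between -0.97 and -0.87. Among neighbouring lipid genes, 0 of 13 for fatty acid synthesis and desaturation (3 at an unadjusted p under 0.05) and 0 of 8 LXR and sterol efflux targets (2 at that level) were called by limma, shares near the 23% of all genes at that level. FASN, fatty acid synthase, was at -0.94 ± 0.27 (adjusted p = 0.0802), and ABCA1, a cholesterol exporter, at 1.02 ± 0.35 (adjusted p = 0.118). The sterol regulatory element, TCACNCCAC on either strand, was present in 0 of the 6 called members with a promoter entry and in 0.88% of all promoters.

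Glucose-sensing arrestins and their regulators gave 3 rises among 9 tested genes and 0 falls. Besides TXNIP, ARRDC3, an arrestin that sorts membrane receptors, was at 414.9, 683.8, 465 and 388 against 91 and 164.8 (1.91 ± 0.33, adjusted p = 0.0222). The third was KLF10, which is also counted among the immediate early genes. ARRDC4, the closest relative of TXNIP, was at 1.34 ± 0.40 (adjusted p = 0.0856). Of 22 amino acid and ER stress genes tested, 3 rose and 0 fell, with a median of 0.51. DDIT4, an inhibitor of mTOR signalling, read 12654.1, 4212.5, 10742.3 and 11659.6 against 2322.8 and 2827.6 (1.82 ± 0.39, adjusted p = 0.0413), with replicate b apart from the rest. HERPUD1, which helps degrade misfolded ER proteins, was at 1.06 ± 0.20 (adjusted p = 0.0271). The remaining rise was ATF3, which is also counted among the immediate early genes. Hypoxia and glycolysis genes split, with 2 of 27 higher and 2 lower. ANKRD37 (1.53 ± 0.28, adjusted p = 0.0269) and PFKFB3, which makes an activator of glycolysis (1.16 ± 0.25, adjusted p = 0.041), rose. EGLN3, an oxygen-sensing prolyl hydroxylase (-1.62 ± 0.26, adjusted p = 0.0171), and PKM, pyruvate kinase (-1.04 ± 0.24, adjusted p = 0.0467), fell, each with another probe set that differed, at -0.13 for EGLN3 and 0.58 for PKM.

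Stress and cell death genes also went both ways. Of 21 NRF2 and glutathione genes tested, the metallothioneins MT1X (1.16 ± 0.25, adjusted p = 0.0413) and MT2A (0.92 ± 0.20, adjusted p = 0.0411), which are near-identical copies, rose. HMOX1, heme oxygenase 1, fell, at 1716.4, 1068.5, 958.4 and 1194.2 against 3015.3 and 3876 (-1.50 ± 0.26, adjusted p = 0.0233). Of 21 p53 targets tested, 2 rose and 1 fell. GADD45A, a growth arrest gene, read 7871.2, 11234.2, 11282.9 and 11192.1 against 4005.5 and 4406.7 (1.29 ± 0.19, adjusted p = 0.0148), and PMAIP1, the pro-apoptotic protein NOXA, was at 1.39 ± 0.21 (adjusted p = 0.0148). BAX, which permeabilises mitochondria, fell, at 1572.4, 1759.1, 2978 and 2253.4 against 5009.7 and 6489.1 (-1.46 ± 0.27, adjusted p = 0.0275), with its other probe set at -1.74. FADD, the adaptor that links death receptors to caspases, had the largest fall of all genes tested, at 252.1, 189.5, 327.3 and 400.7 against 1560.8 and 1353.7 (5.08-fold lower, -2.34 ± 0.31, adjusted p = 0.00981). TNFRSF10D, a decoy receptor for the death ligand TRAIL, rose (1.38 ± 0.27, adjusted p = 0.0326). SAT1, the acetyltransferase that degrades polyamines, was among the brightest genes that rose, at 30548.6, 25882.8, 28857.2 and 27073.5 against 13498.2 and 13840.3 (1.04 ± 0.13, adjusted p = 0.00876), with dimmer probe sets at 0.57 and 0.58.

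Genes of the Wnt, BMP and YAP pathways held several of the largest falls without a common direction. SP5, a repressor that Wnt signals induce, was at 340.5, 288.4, 525.3 and 469.5 against 2262.9 and 1708.2 (4.93-fold lower, -2.30 ± 0.29, adjusted p = 0.00894). DKK1, a secreted Wnt antagonist that Wnt signals also induce, read 9813.7, 9199.7, 9257.8 and 9614.7 against 30405.6 and 28257.6 (3.09-fold lower, -1.63 ± 0.13, adjusted p = 0.00109), with little spread in either group. AXIN2, the best known feedback target of beta-catenin, was at -1.03 ± 0.24 (adjusted p = 0.0507), and its other probe set above the filter at -2.36. FZD7, a Wnt receptor, rose (1.08 ± 0.24, adjusted p = 0.043), with another probe set at 0.30. In all, 1 of 13 tested Wnt feedback targets rose and 2 fell, with a median of -0.11. ID1, which blocks differentiation factors and is induced by BMP signals, was at 2735.1, 2787.6, 7582.5 and 6325.7 against 19876 and 16636.4 (-2.05 ± 0.41, adjusted p = 0.0325). Its relatives ID3 (-0.54 ± 0.23, adjusted p = 0.193) and ID2 (-0.20 ± 0.16, adjusted p = 0.479) did not pass, and ID1 was the 1 called gene of 10 BMP and SMAD feedback genes tested. Of 11 YAP and TEAD targets, AXL, a receptor tyrosine kinase (2.07 ± 0.41, adjusted p = 0.0325), and LATS2, a kinase that restrains YAP (1.08 ± 0.23, adjusted p = 0.0411), rose, and TEAD4, a DNA-binding partner of YAP, fell (-1.18 ± 0.23, adjusted p = 0.0314). AXL passed the filter through its side population arrays and read 113.9 and 36.4 in unsorted cells, the second below that array's median. Its value was 1.77 with readings under the median raised to it, and its adjusted p was 0.0593 without the filter. Other probe sets of LATS2 and TEAD4 were at 0.15 and -0.41. Of 13 Notch pathway genes ADAM17 alone was called, 11 had a positive fold change and the median was 0.30. HES1, a Notch target, was at -1.38 ± 0.34 (adjusted p = 0.0531). NRARP, another member of the list, was at 1.24 ± 0.30 (adjusted p = 0.0533).

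Markers of gastric and intestinal identity were also split. GATA6, a transcription factor of the foregut and gastric epithelium, fell, at 2331.5, 1873.5, 1931.4 and 3082.5 against 7596.6 and 8426.2 (3.54-fold lower, -1.82 ± 0.23, adjusted p = 0.00981). PITX1, a homeobox factor of hindlimb and other tissues, was at 394.8, 383.6, 378.8 and 854.6 against 1808.4 and 1375.2 (-1.73 ± 0.35, adjusted p = 0.0345), with another probe set at -0.61. TFF1, the trefoil peptide secreted by gastric surface cells, rose, at 1286.4, 1415.3, 1233.6 and 1079.4 against 468.7 and 499.6 (1.36 ± 0.21, adjusted p = 0.0149). REG4, an intestinal secretory lectin, read 10470, 5720.5, 21117.6 and 21884.6 against 6850.8 and 5901.9, so that the groups overlapped (1.02 ± 0.47, adjusted p = 0.23), with c and d above a and b. Of 14 members of this list 1 rose and 1 fell. Of 24 epithelial junction and keratin genes, 0 were called by limma, 8 had an unadjusted p under 0.05 against 23% of all genes, 10 had all side population arrays below both unsorted ones against 15.7%, and the median was -0.32.

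Of 48 tested G2/M and mitosis genes, 2 fell, against 1.15% of all genes tested, and 0 rose, against 2.57%, with a median of -0.27. All side population arrays lay below both unsorted ones for 14 of the 48, against 15.7% of all genes. They lay above both for 1, against 20.9%. PLK1, a mitotic kinase, was at 497.5, 224.2, 481.2 and 613.4 against 2018.8 and 1454.2 (3.98-fold lower, -1.99 ± 0.37, adjusted p = 0.0275), and MAD2L1, of the spindle checkpoint, at -0.92 ± 0.20 (adjusted p = 0.0411), with its other probe sets at -0.89 and 0.21. Relative to the unsorted mean, the median of G2/M and mitosis genes was 0, 0.03, -0.48 and -0.63 in side population replicates a to d. Of the 48, 44 were lower in c and d than in a and b, and 9 passed that test, against 2.98% of all genes tested. PLK1 did not follow this pattern, since it was lowest in replicate b. Of the centromere proteins, CENPB, which binds the repeats of human centromeres, read 313.7, 206.2, 249.7 and 321.4 against 1432.3 and 940.7 (4.25-fold lower, -2.09 ± 0.28, adjusted p = 0.0108). CENPI, of the inner kinetochore, was at 307.8, 230.4, 453 and 416.4 against 1328.5 and 1284.8 (-1.92 ± 0.29, adjusted p = 0.0148), with another probe set at -1.74. These were the 2 called of 24 centromere proteins tested. Of 43 genes of G1/S and DNA replication 1 was called, RFC2, a subunit of the clamp loader (-1.08 ± 0.23, adjusted p = 0.0396, another probe set at -0.38), while PCNA, the clamp itself, was at -0.45 ± 0.13 (adjusted p = 0.0883). 

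The transporters by which a side population is defined did not separate the groups. ABCG2 read 76.2, 24.1, 239.2 and 157.9 in side population replicates a to d and 105.1 and 85.5 in unsorted cells, below the expression filter, so that it was not tested and the groups overlapped. ABCB1 was dimmer still, at 37.1, 7.9, 25.2 and 40.7 against 16.6 and 8.3. ABCC1, a related exporter, was well above the filter, at 2368.7, 1823.5, 1937.7 and 2479.8 against 1703.8 and 1634.2 (0.35 ± 0.21, adjusted p = 0.342). Of 10 tested ABC efflux transporters 0 were called by limma and 3 had an unadjusted p under 0.05, against 23% of all genes. ABCC3, an exporter of organic anions, came closest (1.28 ± 0.31, adjusted p = 0.0509). Among stem cell markers, 0 of 10 tested were called by limma and 1 had an unadjusted p under 0.05, again against 23%. LGR5, which marks stem cells of the gut, read 5262.3, 5706.1, 6956.1 and 7907 against 7075.5 and 7175 (-0.16 ± 0.20, adjusted p = 0.677). A dimmer LGR5 probe set above the filter was at -1.07. CD44, a hyaluronan receptor with other probe sets above the filter from -0.62 to 0.76, was at 775.3, 792.7, 1523.2 and 1643.2 against 1357.1 and 1101.8 (-0.13 ± 0.35, adjusted p = 0.856), with c and d above a and b, and PROM1, which encodes CD133, lay below the filter. SOX2, a stem cell and foregut factor, was lower on every side population array, at 342.6, 685.2, 294.3 and 260.9 against 1136.1 and 973.1, and narrowly did not pass (-1.51 ± 0.36, adjusted p = 0.0525). Another SOX2 probe set above the filter was at -1.94.

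Because the labels name a pair of lines, genes that are high in MKN 45 were examined. MET, the hepatocyte growth factor receptor, rose, at 3875.2, 2232.3, 3721.8 and 2586 against 1269.5 and 1218.5 (1.28 ± 0.26, adjusted p = 0.0365), but its dimmer probe sets were at -0.05 and -0.58. CEACAM5 rose as given above. CEACAM6 had lower values in side population cells, at 9056.1, 8642.4, 9662.1 and 9120.6 against 12208.3 and 12700.7 (-0.45 ± 0.14, adjusted p = 0.0997). The summed intensity of these 3 genes was 12477.8 to 16003.6 in side population and 13817.4 to 14396.2 in unsorted cells, so the sums overlapped. CEACAM6 was by far the brightest on every array, so the sums mainly followed it and could not show the rises of MET and CEACAM5. The part of cell line in the results was not tested. The fit restricted to arrays labelled AGS called 1889 genes, including 362 of the 368. The fit with only side population replicates a and b, which name no line, also included 362. Both fits reused arrays that gave the 368 calls, so this overlap cannot show the part of cell line.

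Some of the largest changes belonged to a single probe set of a gene. The probe set standing for SOD2, a mitochondrial superoxide dismutase, read 3054, 2864.8, 1062.8 and 506 against 71.5 and 154.4 (3.74 ± 0.66, adjusted p = 0.024). The 3 probe sets above the filter that name SOD2 together with its overlapping transcript SOD2-OT1 were at 0.18, -0.22 and 0.67 on the log2 scale. FBXO11, of a ubiquitin ligase, read 2912.1, 2479.2, 1332.4 and 662.4 against 213.7 and 396.8 (2.42 ± 0.54, adjusted p = 0.0435), with other probe sets at 0.77 and -0.23. LOC114224, which has no other probe set to compare, was at 970, 942.2, 464.2 and 285.4 against 60.8 and 117.7 (2.72 ± 0.50, adjusted p = 0.0264). These genes shared an order over the side population arrays, highest in a and b and lowest in d. RPL27A, a ribosomal protein gene that did not pass, had the same order, at 5728.8, 4512.9, 1447.7 and 689.5 against 398.2 and 329.5 (2.62 ± 0.72, adjusted p = 0.0708). The probe set that names RPL27A with the small RNA gene SNORA3A read 34367.6 to 53925.5 in side population cells and 39876.1 and 38183.4 in unsorted cells, a difference of 0.15. Every one of the 44 tested genes for cytosolic ribosomal proteins had a positive value (median 0.20), and 0 were called by limma while 10 had an unadjusted p under 0.05, near the 23% of all genes. That median became 0.01 after quantile normalization and 0 with arrays centred on the median of all probe sets, so its direction depends on scaling.

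**Figure D5:**
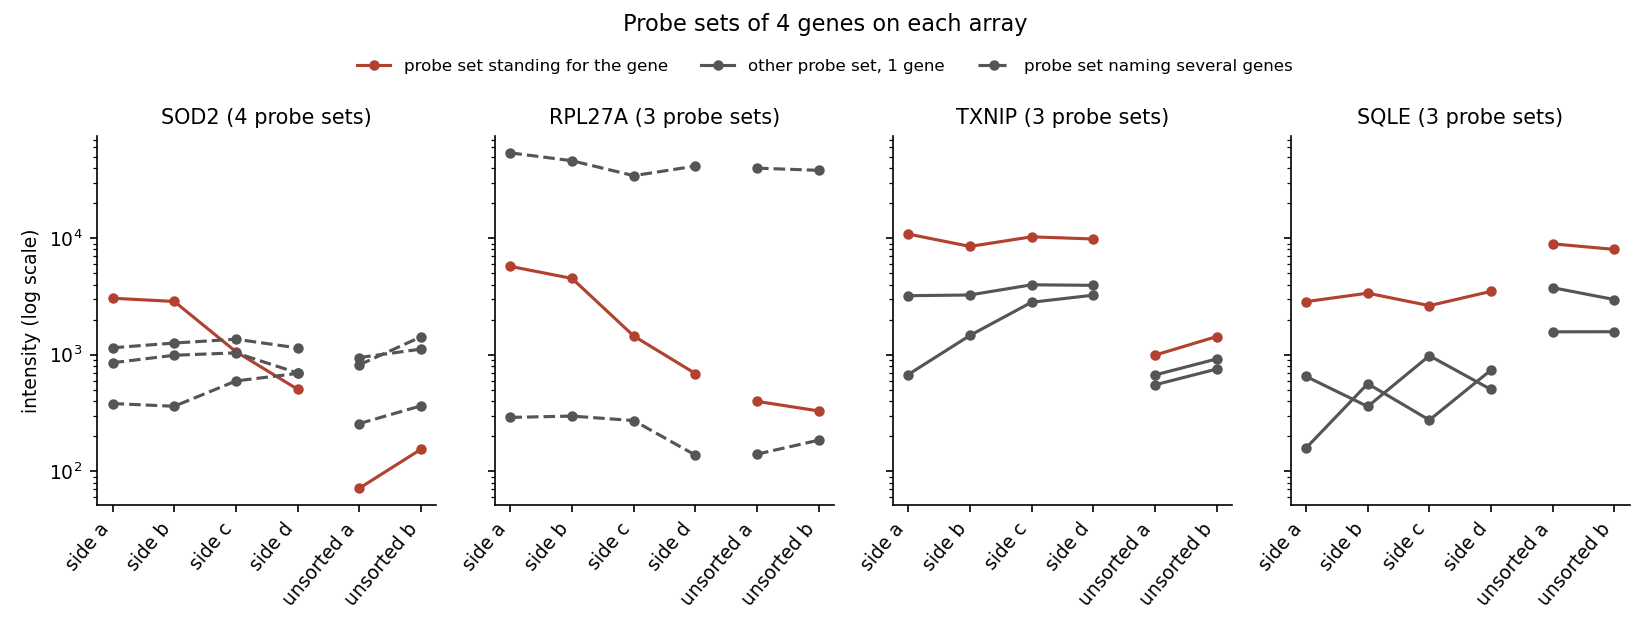
Intensity on a log scale (y axis) on each of the 6 arrays (x axis) for the probe sets of SOD2, RPL27A, TXNIP and SQLE above the expression filter. Red marks the probe set that stands for the gene, grey lines are other probe sets, and dashed lines are probe sets naming several genes. The TXNIP and SQLE probe sets share a direction, with TXNIP at 3.04, 2.18 and 1.42 and SQLE at -1.46, -2.08 and -2.51, while the red SOD2 probe set differs from the dashed ones.

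GPATCH2L was called lower (-1.83 ± 0.22, adjusted p = 0.00876), but all 4 of its other probe sets above the filter were higher in side population cells, by 0.74 to 2.03. Of the 368 called genes, 198 had another probe set above the filter, and in 78 of those at least 1 pointed the opposite way. FRMD4B, METTL18 and TMEM52B had no other probe set above the filter. FRMD4B, a scaffold protein, read 679.9, 469.8, 372.6 and 583.5 against 1721.4 and 2073.8 (-1.87 ± 0.27, adjusted p = 0.0131). METTL18, a histidine methyltransferase, was at 234.3, 250, 291.2 and 384.2 against 966 and 1022.1 (-1.78 ± 0.26, adjusted p = 0.0132). AP1S3, a subunit of a clathrin adaptor, was at 861.7, 1705.9, 1156.8 and 976.3 against 3378.1 and 4278.3 (-1.74 ± 0.28, adjusted p = 0.0191), and its 3 other probe sets were also lower, at -1.65, -2.09 and -1.18. TMEM52B read 534.2, 337.8, 136.6 and 162.8 against 1013.7 and 1153.8 (-2.07 ± 0.49, adjusted p = 0.0487).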

How the data were processed

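Gene expression was measured on single-colour Affymetrix arrays, 1 per sample. The deposited values are linear intensity values for 54675 probe sets, and GCOS 1.4 is named in the submitters' processing notes, which give neither its role nor its settings. On the 6 arrays the mean intensity, trimmed by 2% at each end, was 500.077 to 500.084, so the arrays had been scaled to a common level before deposit. Intensities were not rescaled. The array's annotation gave 1 symbol for 41097 probe sets, several for 1801 and none for 11777. For each of 19775 genes the probe set of highest mean intensity was kept, without control probe sets. A constant of 5.7 (the 10th percentile of intensity) was added to the deposited values before taking log2, and the 9888 genes with a mean log2 value at or above the median were tested.

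Side population (4 arrays) and unsorted cells (2 arrays) were compared with limma 3.58.1 in R 4.3.3 (lmFit and eBayes with an intensity trend, two-sided), and p-values were adjusted by the Benjamini-Hochberg method over all genes tested. Genes with an adjusted p below 0.05 were called. The same model with side population replicates a and b and replicates c and d as separate groups gave the difference between those pairs. The code was tested on simulated data. Depth does not apply to arrays, and the number of arrays limits the precision.

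Named genes were the 15 called genes of largest change in each direction with separated groups, or fewer, up to 5 members per list by smallest p, and the dye efflux, stem cell and MKN 45 markers. The comparison, the gene lists and the rules were chosen with earlier results of these data known. Promoter sequences, 250 bases before each start, came from RefSeq (GRCh38.p14). The alternatives were other constants, filters, scalings, probe set rules, array sets and array weights, and leaving out each array.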

Additional observations from a re-analysis of the deposited data

Results flagged for a closer look

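In 6 of 109 named genes, 1 side population array lay far from the other 3 by Dixon's criterion, which chance meets in about 1 in 20 groups. Replicate a stood low for HLA-C (4940.8), HLA-B (6116.7) and GADD45A (7871.2), the library with raised 3' to 5' control ratios. Replicate b stood low for DDIT4 (4212.5), replicate c apart for TEAD4 (656.4) and replicate d high for PITX1 (854.6). The part of RNA quality in these values was not tested.

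For 17 named genes, side population replicates c and d differed from a and b by limma's test of that difference over all genes (adjusted p under 0.05). On the log2 scale the difference was 2.39 for BST2, 2.21 for OAS2, 1.56 for IFI44, 1.24 for IFI27, 0.93 for IRF9, 1.47 for LAMP3 and 1.21 for PSMB9, which interferon induces. It was 1.47 for REG4, 1.32 for ID1, 1.01 for CD44 and 0.91 for FOSB. The opposite direction held for RPL27A (-2.34), SOD2 (-2), FBXO11 (-1.51), TMEM52B (-1.48), LOC114224 (-1.38) and AMD1 (-1.01), of which the first 3 and LOC114224 are described above by their single probe sets. Source label and array-to-array differences cannot be told apart here.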

How the results depend on the processing

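The count of 368 called genes moved by over 1.5 times under several choices. It was 226 with all 10 arrays in the fit, 193 with no filter, 200 with the filter at the 75th percentile and 981 with every probe set tested. It was 1714 with array quality weights, 1889 with only arrays labelled AGS, 1819 with only side population replicates a and b, and 1676 with the letter pairs as subgroups, a fit added after seeing the data. Leaving out 1 array at a time gave 4 to 467. The lowest counts, 4 and 12, came without unsorted replicate a or b, where the lone unsorted array was assumed to vary like the side population arrays, and 142 genes were called without side population replicate a. With the replicate letter as a replicate block the count was 2782 and included all 368. The labels do not say that letters pair the samples, and the a minus b differences of the groups correlated at 0.214 across genes for the only 2 letters they share. Of 109 named genes, 76 were called. None of these 76 changed direction in any alternative run that kept 1 probe set per gene, and 74 lost their call in at least 1. The groups of all 368 called genes did not overlap. Runs with another constant or with fewer of these arrays therefore could not reverse a direction, and the lack of reversals there is no evidence of stability. The run on every probe set was not part of this check, and other probe sets of some called genes pointed the opposite way, as given above. Of the 33 not called, 29 were called in at least 1, and 2 changed sign, LGR5 (-0.38 to 0.06) and CD44 (-0.64 to 0.37). The cause of these shifts was not tested. With 2 unsorted arrays, the spread of that group rests on a single difference, and fold changes of dim genes are understated by the added constant.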
